A study of Mus musculus with 17 samples.

Results

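The genes described here are the long intergenic noncoding RNAs (lincRNAs) that were readily detected in mouse bile duct: 273 of the 2355 autosomal lincRNA genes in the deposited table, which lists 43346 genes in all. A gene was included when its biotype in the table was lincRNA, when it lay on neither sex chromosome, and when its median over the 17 libraries was at least 2 CPM (the gene's count over the library's total, times 1000000). Another 2082 autosomal lincRNA genes fell below that level, and 804 of these had no count in any library. The genes were chosen by their median CPM in these libraries, so levels are given as a description. Differences between libraries were not used directly by the choice, but a gene expressed in only a few libraries could not enter.

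A lincRNA is a spliced or unspliced transcript, made by RNA polymerase II and lacking a long open reading frame, whose gene lies between protein-coding genes. Some act in the nucleus, such as Neat1, the scaffold of paraspeckles, and Malat1, which collects in nuclear speckles; others serve as precursors, carrying microRNAs or small nucleolar RNAs (snoRNAs) that are cut out of the transcript or its introns. Many have no assigned function. In the deposited table, 250 of the 273 carry a clone-derived or predicted-gene name, and 16 of the 273 are named differently in GENCODE release M21.

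The series is a study of extrahepatic cholangiocarcinoma, a tumour of ducts that carry bile outside the liver, and holds 17 samples of total RNA, all labelled bile duct. The labels name no strain, genotype, treatment, age or disease state, and they do not say whether samples came from separate animals, so the p-values below measure only the spread between these libraries, which may be technical. The count columns carry 6 codes (R62848, R62850, R63289, R63494, R63496 and R63500), with 2 libraries for R63494 and 3 for each other code. What a code stands for is not given, and columns could not be tied to single samples. Comparisons between codes therefore ask only whether libraries with the same code resemble each other more than libraries with different codes.

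Library totals were 16400556 to 24152314 counts. Summed CPM of 10 fibroblast and matrix genes were 14031 to 15895 in R62848 and 15710 to 17968 in R63500, against 3436 to 8905 in the libraries of the other codes. Summed CPM of 11 pancreatic acinar genes were 5440, 21702 and 105326 in R62850 and 41.0 to 151 elsewhere. Summed CPM of 10 cholangiocyte genes lay between 5816 and 9265 in all libraries. In bulk tissue, fewer cells of a type and less RNA per cell cannot be told apart.

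The word intergenic applied to a minority of the genes. Of the 273, 155 overlapped the body of a protein-coding gene in the table. By identifier, 256 were found in GENCODE release M21, which is on the same build (mm10, GRCm38); 168 of them were still called lincRNA there, 55 antisense, 16 processed transcript, 11 bidirectional promoter lncRNA, 2 protein coding, 2 transcribed unprocessed pseudogene, 1 sense intronic and 1 snoRNA. In that release, 137 overlapped a coding gene on the opposite strand only, 9 on the same strand only and 8 on both. The last 2 counts include the 2 genes called protein coding there, since a gene's own entry was not left out. Exons of 142 shared at least 1 base with coding exons, and in 43 the shared bases made up at least 50% of the exon length. By the table's coordinates, another 73 had a coding gene within 10 kb without overlap, 30 of them head to head, which means divergent starts. The sources used here do not say whether counting used strand. Gm26825 and the processed pseudogene Gm15459, which overlap on opposite strands of chromosome 5, had counts that differed by at most 0.0778% in any library. Reads in shared bases were thus counted for both genes, irrespective of strand, at that locus. All 7 microRNA genes that M21 places inside a lincRNA on its opposite strand had counts above 0. Such counts do not settle the strand setting, since a transcript on the microRNA's own strand could also give them. The level of a lincRNA that overlaps another gene is therefore uncertain.

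The sequences that follow are some of the mature microRNAs, from RefSeq on GRCm38.p6, that lie on the same strand inside the expressed lincRNAs. The levels of the hosts shown are described further on, and the microRNAs in Meg3 are not printed. In all, 9 of the 273 genes held 29 mature microRNAs on their own strand. Capitals mark the seed, bases 2 to 8, which is the part that pairs with target messages. The mature microRNAs themselves were not measured in these libraries.
In A330023F24Rik, the primary transcript of miR-29b-2 and miR-29c, at chr1:194976375-195037904, the main arms share the seed AGCACCA:
mmu-miR-29b-3p: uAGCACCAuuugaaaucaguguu
mmu-miR-29c-3p: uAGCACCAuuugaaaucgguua
In Mir17hg, host of the miR-17-92 cluster, at chr14:115042879-115046727, miR-17-5p and miR-20a-5p share a seed, and so do miR-19a-3p and miR-19b-3p:
mmu-miR-17-5p: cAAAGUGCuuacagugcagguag
mmu-miR-20a-5p: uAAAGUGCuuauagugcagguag
mmu-miR-18a-5p: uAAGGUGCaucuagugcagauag
mmu-miR-19a-3p: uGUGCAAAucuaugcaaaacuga
mmu-miR-19b-3p: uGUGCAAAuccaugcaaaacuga
mmu-miR-92a-3p: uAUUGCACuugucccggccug
In H19, at chr7:142575529-142578143 on the minus strand, both arms of miR-675:
mmu-miR-675-5p: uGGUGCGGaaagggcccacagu
mmu-miR-675-3p: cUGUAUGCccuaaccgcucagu
In Mir142hg, host of the blood-cell microRNA miR-142, at chr11:87755577-87757270:
mmu-miR-142a-5p: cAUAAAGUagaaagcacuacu
mmu-miR-142a-3p: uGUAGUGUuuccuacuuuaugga
In 6720427I07Rik, a let-7 family member, and in E130102H24Rik, miR-101a:
mmu-let-7d-5p: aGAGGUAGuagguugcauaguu
mmu-miR-101a-3p: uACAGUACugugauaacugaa

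As a class the expressed lincRNAs were scarce. Together they held 0.655% (R63496_3) to 0.984% (R63496_1) of a library's counts, with a median of 0.788%. A few genes dominated: Yam1, Neat1 and Malat1 together took 26.5% to 58.6% of the lincRNA counts. An rRNA gene overlaps Yam1 in M21, and whether Yam1 counts include rRNA reads was not tested. By median CPM, 9 genes reached 100 or more, 94 lay between 10 and 100, and 170 between 2 and 10, with a median over the genes of 7.21 CPM. On the length-corrected scale, RPKM computed from the counts (CPM per kilobase of gene length), the median over the genes was 3.37, with 50 genes at 10 or more and 24 below 1. At the edge of the set, Gm26690, Gm15411 and 2810433D01Rik stood just inside with medians of 2.001, 2.003 and 2.006 CPM, and Gm26563, G630016G05Rik and 4732491K20Rik just outside with 1.993, 1.993 and 1.987 CPM.

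**Figure D1:**
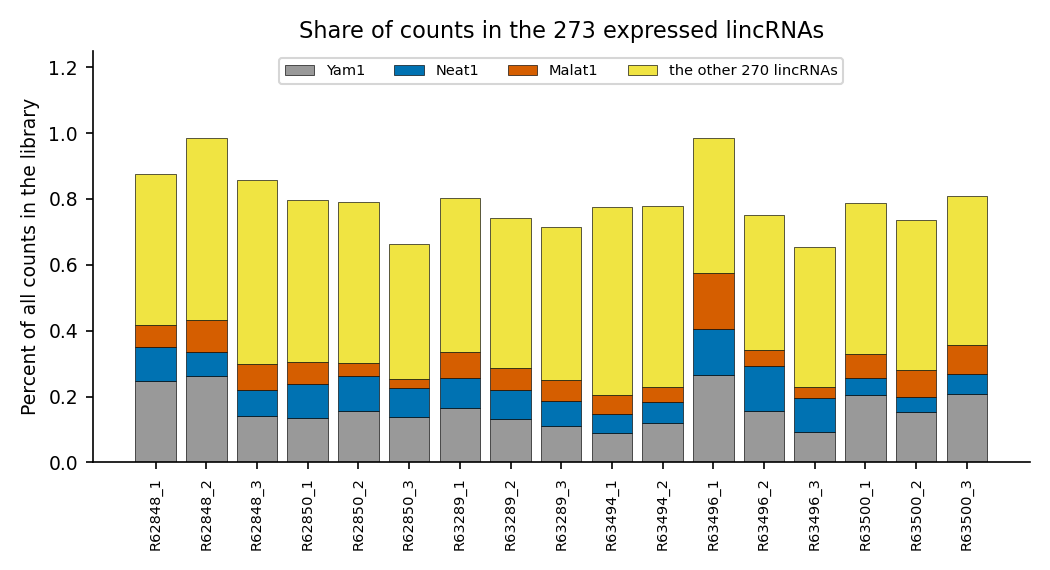
Percent of each library's counts (vertical axis) held by Yam1, Neat1, Malat1 and the remaining expressed lincRNAs (stacked bars), for the 17 libraries. R63496_1 and R63496_3, which share a code, had the highest and the lowest total, 0.984% and 0.655%.

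The summed share did not differ detectably between codes (permutation test of 100000 label orders, p = 0.361). Without R63496_1, the library with the highest Yam1, Neat1 and Malat1 CPM, the test gave p = 0.0288, and without Malat1 and Neat1 it gave p = 0.0401. Without Yam1, an alternative chosen after seeing the data, it gave p = 0.275. The outcome for the sum thus changed without that library and without Malat1 and Neat1, but not without Yam1.

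By median RPKM, the highest gene was Yam1 (838 RPKM, chr17:39846958-39848788), called Gm42418 in M21, where an rRNA gene overlaps it on the opposite strand. Its level was 888 CPM at the lowest, 1535 at the median and 2666 at the highest, so the highest library was 3.003 times the lowest, and its difference between codes did not pass (edgeR quasi-likelihood test, Benjamini-Hochberg adjusted p = 0.277). Gm26880 followed with a median of 324 RPKM, then Gm26825 with 177, 1810014B01Rik with 104 and Malat1 with 96.8. Gm17275, Gm28592, Gm26669, Neat1, Gm26892, Gm26735 and C330006A16Rik had medians between 35.0 and 63.3 RPKM. Among these 12, only Yam1, Neat1, Malat1, Gm26825 and C330006A16Rik overlapped no coding gene of the table. Gm17275 overlapped H3f3a, which encodes histone H3.3; Gm26669 overlapped Zfp36l1, an mRNA-decay factor; Gm26735 overlapped Sox4, a transcription factor; and 1810014B01Rik overlapped Hsp90b1, an endoplasmic reticulum chaperone.

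**Figure D2:**
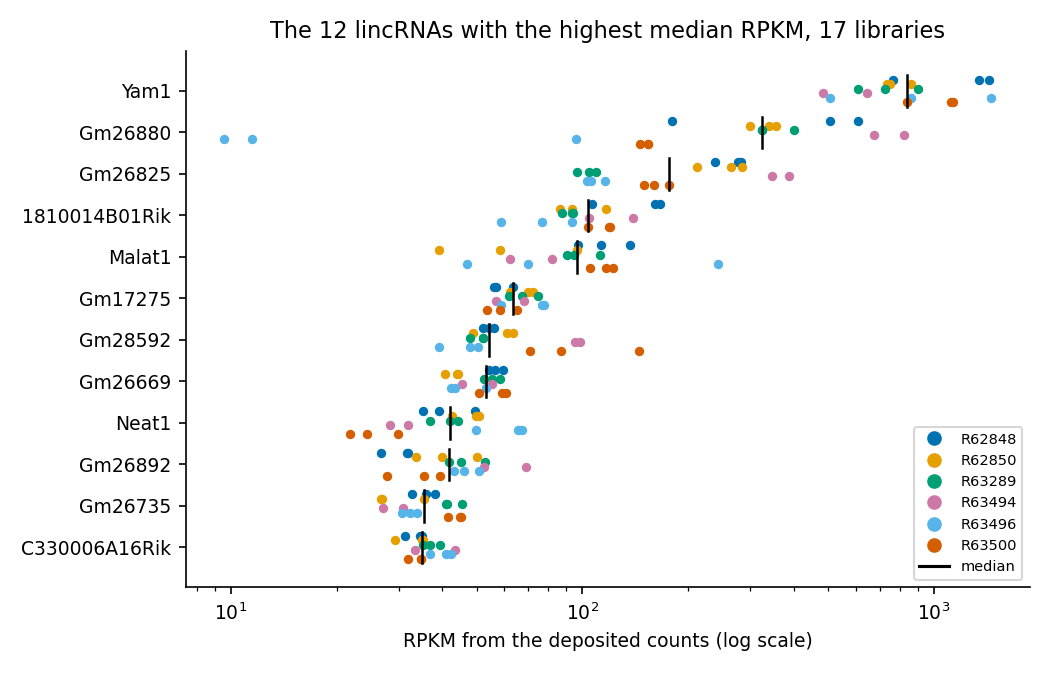
RPKM from the deposited counts (horizontal axis, log scale) of the 12 lincRNAs with the highest median, each point a library coloured by column code and each black line the median. Gm26880 spreads most, with its lowest points in R63496, whereas C330006A16Rik and Gm17275 stay within a narrow band.

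The paired nuclear transcripts Neat1 and Malat1, neighbours on chromosome 19 (chr19:5824708-5845478 and chr19:5795690-5802672, both minus strand), were among the most abundant lincRNAs. Neat1 had 1397, 1367 and 1033 CPM in R63496, and 505, 454 and 620 CPM in R63500. No R63500 library reached the lowest R63496 library, and the code means, 1265 and 526 CPM, stood 2.40-fold apart. Neat1 passed the test between codes (edgeR adjusted p = 6.6e-06) and passed it in each fit that left out 1 library. Malat1 had 273 CPM at the lowest (R62850_3), 676 at the median and 1698 at the highest (R63496_1). The other R63496 libraries had 488 and 328 CPM, so the code with the highest mean also spanned most of the range. Malat1 did not pass (edgeR adjusted p = 0.608), and among the fits that left out 1 library it passed only without R63496_1 (adjusted p = 0.041). A test of the difference between the 2 genes was not run. Of 11 genes for paraspeckle and speckle proteins, 5 passed the same test, a share near the 42.2% of all tested genes that did.

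Of the 273 lincRNAs, 91 (33.3%) differed between codes, against 42.2% of all 19412 tested genes. Among the 12811 autosomal protein-coding genes with a median CPM of at least 2, the share was 51.5%. The share among lincRNAs was thus below both backgrounds here, but its order against all genes depended on the low-count filter: with no filter 38.1% of the lincRNAs passed, against 29.1% of 29354 genes. The background of all tested genes had no median threshold, so it could hold genes expressed in only a few libraries. The coding genes were also more abundant, with a median of the median CPM of 31.9, against 7.21 for the lincRNAs. Among lincRNAs that overlapped no coding gene it was 44 of 118 (37.3%), among those that did 47 of 155 (30.3%), and among those in M21 with no exon base in a coding exon 43 of 114 (37.7%). Of the 91, 56 also passed in every fit that left out 1 library. In 57 of them the highest code mean was at least 2 times the lowest, with a median ratio of 2.23 over the 91. No single code carried the differences: the highest mean fell in R63496 and R63500 for 17 genes each, in R63494 for 16, in R62848 and R62850 for 14 each and in R63289 for 13. The lowest mean fell in R63494 for 25 genes and in R62850 for 23.

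**Figure D3:**
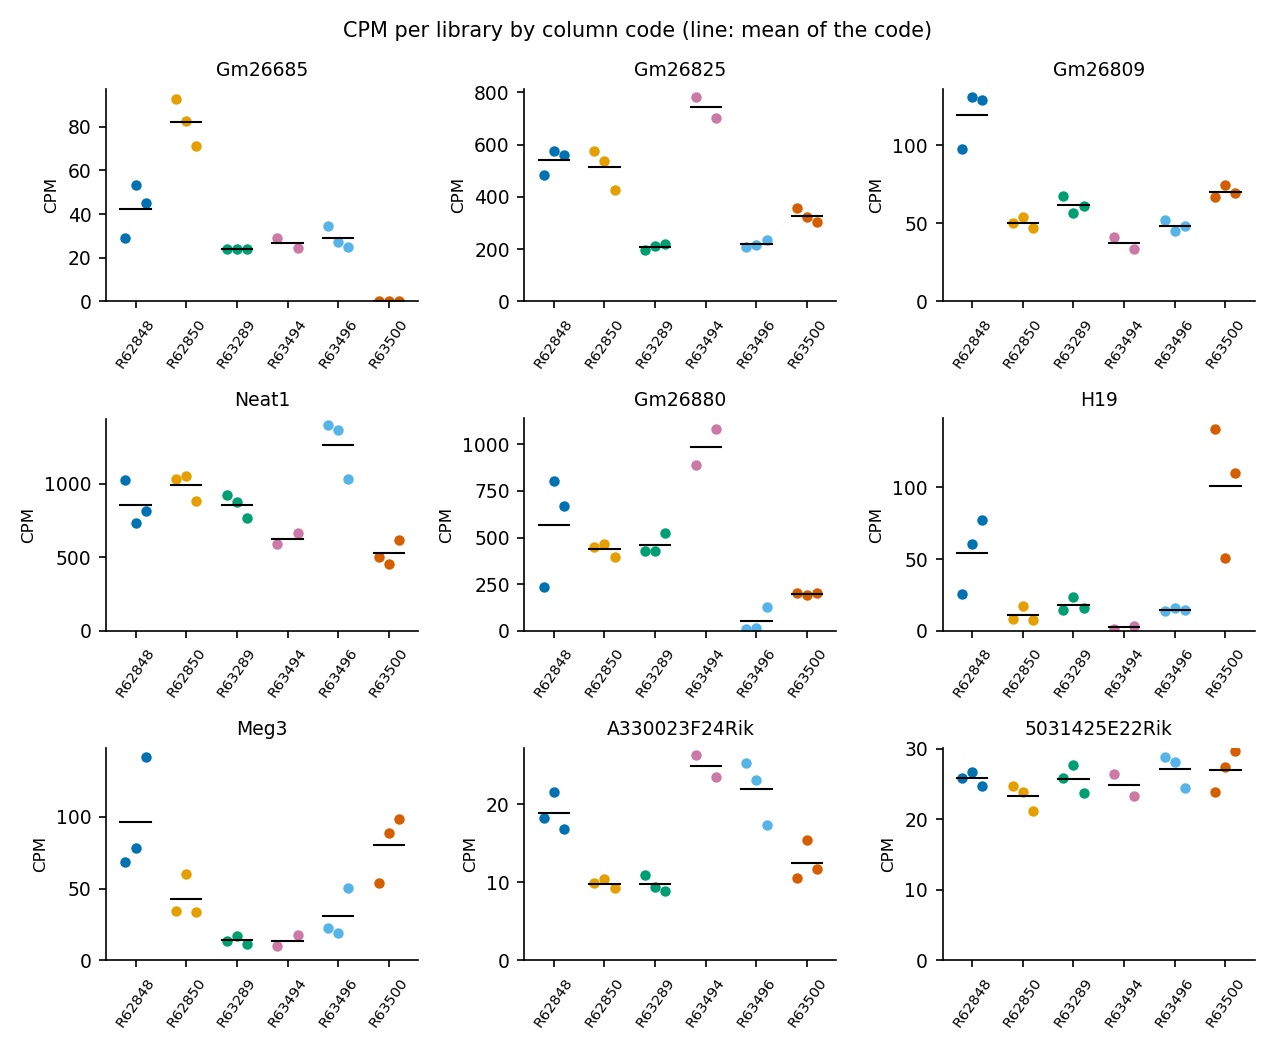
CPM (vertical axes, from 0) per library by column code for 9 lincRNAs, with a line at each code's mean. Gm26685 is near 0 in the R63500 libraries, H19 and Meg3 have their highest means in R62848 and R63500, and 5031425E22Rik lies between 21.2 and 29.7 CPM throughout.

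The clearest case was Gm26685 (chr1:164503309-164514882, plus strand), a lincRNA without a known role that overlaps no coding gene. It had 92.5, 82.7 and 71.0 CPM in R62850, and 0, 0.113 and 0.210 CPM in R63500, which were counts of 0, 2 and 4. The other libraries had 23.95 to 53.2 CPM. All 3 R63500 libraries were near 0, while every other library was at 23.95 CPM or more (edgeR adjusted p = 2.1e-11; largest value in fits without 1 library 1.2e-09). The same held for RP24-272N10.6 (chr1:164575455-164578553), 60572 bases away with no gene of the table between them: it had 0.386, 0 and 0 CPM in R63500 and 43.2 to 114 elsewhere. These 2 genes were the only ones in the table below 1 CPM in every library of a code and at 10 CPM or more in all other libraries. Their coding neighbours were also lowest in R63500, though far from 0. Atp1b1, a sodium pump subunit, had 1329, 1090 and 1423 CPM in R63500 and 1430 to 2081 CPM in the other libraries (edgeR adjusted p = 2.6e-05). Nme7, a nucleoside diphosphate kinase family member, had 261, 226 and 253 CPM in R63500 and 263 to 552 CPM in the others (adjusted p = 3.6e-07). Both therefore passed the test between codes, and for both R62848 came next to R63500, with 1430 to 1598 CPM of Atp1b1 and 263 to 297 CPM of Nme7.

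Gm26825 (chr5:5781530-5783636) had 783 and 702 CPM in R63494, and 196, 211 and 221 CPM in R63289. R63496 was close to R63289 with 208, 214 and 234 CPM, R63500 intermediate with 303 to 358, and R62848 and R62850 above with 428 to 576. The libraries of a code lay close together, with 98.5% of the variance between codes (edgeR adjusted p = 1.9e-11). As its counts match those of the processed pseudogene Gm15459, the transcribed strand was not determined. Whether these reads also match other copies of the sequence in the genome was not tested. Gm26809 (chr6:18844220-18847360), 1219 bases from Lsm8, had 97.2, 131 and 129 CPM in R62848, and 41.4 and 33.8 CPM in R63494 (edgeR adjusted p = 6.4e-09). Every R62848 library exceeded every other library, where the highest was 74.6 CPM. Lsm8, an RNA-binding Sm-like protein gene, ran from 11.9 to 23.7 CPM and did not pass (adjusted p = 0.328).

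Gm26880 (chr4:146509094-146511764) had 888 and 1084 CPM in R63494, and 12.6, 15.2 and 126 CPM in R63496. R62848 ranged from 237 to 801 CPM within the code, and the test gave an edgeR adjusted p of 0.0164 (0.0406 at most in fits without 1 library). Gm13247, the coding gene model it overlaps, had at most 0.408 CPM in any library. Whether reads of Gm26880 also match other copies in the genome was not tested.

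Imprinted lincRNAs, expressed from the copy of a single parent, were also among the variable genes. H19, the maternally expressed growth-limiting RNA, had 141, 51.1 and 110 CPM in R63500, and 1.36 and 3.56 CPM in R63494. R62848 had 25.8, 60.3 and 77.6 CPM, and R62850, R63289 and R63496 lay between 7.55 and 23.5 CPM. The code means, 101 and 2.46 CPM, stood 40.9-fold apart (edgeR adjusted p = 0.00022). Igf2, the paternally expressed growth factor gene beside H19, had 7.38, 8.34 and 17.6 CPM in R63500 and 2.18 to 7.97 CPM elsewhere (adjusted p = 0.00038), so its ranges overlapped. Counts in the miR-675 gene inside H19 were highest in R63500_3, with 6.36 CPM, and lowest in R62850_3, with 0.0572 CPM.

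Meg3 (chr12:109541001-109571726, plus strand), the maternally expressed RNA of the Dlk1-Dio3 domain, had 68.6, 78.2 and 141 CPM in R62848, and 9.98 and 17.4 CPM in R63494. R63500 followed with 54.1 to 98.2 CPM, and R63289 stayed at 11.7 to 17.3 CPM. The code means, 96.0 and 13.7 CPM, stood 7.01-fold apart (edgeR adjusted p = 0.0013). Gm26906, which lies inside Meg3 on the opposite strand, followed the same order of codes at its ends, with 5.67 to 6.77 CPM in R62848 and 0.590 and 1.37 CPM in R63494 (adjusted p = 3.9e-05), and may share reads with it. Rian, the snoRNA-bearing transcript downstream of Meg3 and not in the set because its biotype differs, had 17.9, 28.4 and 40.9 CPM in R62848 and 4.84 and 6.50 CPM in R63494 (adjusted p = 0.00085). Dio3os, at the far end of the domain, had 5.03, 2.98 and 3.60 CPM in R62848 and 0.354 and 0.828 CPM in R63494 (adjusted p = 0.0123). Without R63494_1, Dio3os did not pass (adjusted p = 0.154). Dlk1, the paternally expressed coding gene, was low, with 0 to 5.61 CPM, and passed the test between codes (edgeR adjusted p = 0.0014).

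R62848 and R63500, where H19 and Meg3 had their highest means, were also the codes with the highest fibroblast and matrix sums given above. R63494, where both had their lowest means, had the lowest (3436 and 3974 CPM). Endothelial sums were also highest there, at 357 to 386 CPM in R62848 and 265 to 319 CPM in R63500, against at most 237 CPM elsewhere. So were erythroid sums, at 301 to 317 CPM in R62848 and 120 to 150 CPM in R63500, against at most 109 CPM elsewhere. The part of cell composition in the H19 and Meg3 differences was not tested. Gm22, a lincRNA in the table, is named Zfp469 in M21, where a coding gene was found on its own strand. That gene may be Gm22's own entry, since own entries were not left out of that search. No exon base of Gm22 lay in the exons of another coding gene. Gm22 was also highest in R63500 and R62848. It had 10.9, 16.6 and 10.4 CPM in R63500, 9.16 to 9.27 CPM in R62848, and 2.07 and 2.40 CPM in R63494 (edgeR adjusted p = 3.9e-07). Miat, a nuclear lincRNA, had 3.09, 7.77 and 3.95 CPM in R63500, and 1.18 and 0.869 CPM in R63494 (adjusted p = 0.0044). Without R63500_2, Miat did not pass (adjusted p = 0.0642).

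Of the 9 lincRNAs with a microRNA on their own strand, 5 passed the test between codes (33.3% of all 273 and 42.2% of all tested genes passed): A330023F24Rik, H19, Meg3, Mir17hg and Mir142hg. A330023F24Rik, host of the miR-29 sequences printed above, had 26.3 and 23.5 CPM in R63494, and 10.9, 9.46 and 8.94 CPM in R63289. R63496 was also high with 17.3 to 25.3 CPM, and R62850 low with 9.21 to 10.4 CPM; the code means of R63494 and R63289 stood 2.55-fold apart (edgeR adjusted p = 2.8e-06). Mir17hg, whose cluster is linked to proliferation, had 5.93, 8.40 and 6.36 CPM in R63500, and 1.53 and 2.11 CPM in R63494 (adjusted p = 0.0017). Mir142hg had 10.01, 9.38 and 11.9 CPM in R63496, and 3.54 and 4.10 CPM in R63494 (adjusted p = 0.0016). No library of R63494 reached the lowest R63496 library for Mir142hg. Leukocyte marker sums also differed between these codes. Summed CPM of the 6 neutrophil genes were 1088 to 1606 in R63496 and 562 to 907 in R63494, and those of the 5 macrophage genes present were 947 to 1341 in R63496 and 571 to 741 in R63494, in neither case with overlap. The sums of the 6 B and plasma cell genes present overlapped, at 4555 to 13263 CPM in R63496 and 4568 to 7146 CPM in R63494. Ptprc, the pan-leukocyte gene, ran from 65.7 to 178 CPM over all libraries and did not pass (adjusted p = 0.0651). It also overlapped between these codes, with 115, 92.8 and 133 CPM in R63496 and 146 and 77.9 CPM in R63494. The part of leukocyte content in the Mir142hg difference was not tested. The let-7d host 6720427I07Rik had 4.09 CPM at the lowest and 8.56 at the highest (adjusted p = 0.896), and the miR-101a host E130102H24Rik 1.53 and 3.99 CPM (adjusted p = 0.284); neither passed. In a list of known microRNA hosts of any biotype, 9 were tested and 7 passed, 4 of them in the set described here, beside 42.2% of all tested genes.

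In a list of known snoRNA hosts of any biotype, 12 were tested and 4 passed, beside 42.2% of all tested genes. The 5 of them in the set described here had SDs of log2 CPM between 0.23 and 0.32. These 5, Snhg1, Snhg6, Snhg7, Snhg12 and Snhg18, were expressed at medians of 12.4 to 28.4 CPM. Of the 5, 2 passed, beside 33.3% of the 273 lincRNAs and 42.2% of all tested genes. Snhg18 had 48.1, 44.0 and 25.01 CPM in R62850, and 23.8, 26.0 and 22.6 CPM in R63500 (edgeR adjusted p = 0.0037); its code ranges overlapped. Snhg6 had 15.97, 16.2 and 14.6 CPM in R63500, and 10.2 and 8.98 CPM in R63494 (adjusted p = 0.0414). It no longer passed without any 1 library of R63289, R63494 or R63500, without R62850_3, R63496_1 or R63496_3 (adjusted p up to 0.130), or with no filter on low counts (adjusted p = 0.136). Snhg1 (18.7 to 36.4 CPM), Snhg7 (9.11 to 18.2 CPM) and Snhg12 (11.6 to 24.8 CPM) did not pass (adjusted p = 0.0694, 0.115 and 0.155), and each had its highest library in R63500_2. Snhg1 passed without R62848_1, R62850_1 or R63496_1 (adjusted p down to 0.0353), and Snhg7 without R63496_2 (adjusted p = 0.0415).

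By list, 3 of the 5 nuclear lincRNAs (Neat1, Meg3 and Miat, not Malat1 or Pvt1) and both imprinted ones passed, where 33.3% of the 273 lincRNAs and 42.2% of all tested genes did. Other listed lincRNAs were low. Pvt1, the neighbour of Myc, had 1.09 to 6.30 CPM and did not pass (edgeR adjusted p = 0.163), though it did without R63496_3 (adjusted p = 0.00998). Fendrr, the divergent neighbour of the mesenchymal regulator Foxf1, had 2.47 to 8.42 CPM and did not pass (adjusted p = 0.107), though it did without R63500_2 (adjusted p = 0.0349). The lincRNA 9030622O22Rik, 2674 bases from Foxa2, a transcription factor of endoderm, had 25.3, 19.4 and 17.1 CPM in R62850, and 7.32, 9.81 and 7.56 CPM in R62848 (adjusted p = 7.4e-06). R62850 is the code with the acinar counts given above; without its 3 libraries the adjusted p was 0.00021. Foxa2 itself had 67.8, 69.3 and 56.5 CPM in R62850 and 62.4, 64.2 and 70.9 CPM in R62848.

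Spread over all 17 libraries was taken as the SD on the log2 CPM scale, with TMM factors and a prior count of 2. The median SD was 0.36 among the 273 lincRNAs and 0.34 among all tested genes, a set with no median threshold. Among the autosomal coding genes with a median CPM of at least 2 it was 0.24. With no filter on low counts the order against all genes turned round, with medians of 0.36 among the lincRNAs and 0.40 among all genes. At matched levels, from 2 to 20 CPM, the medians were 0.38 for 223 lincRNAs and 0.38 for 4604 coding genes. The highest library was at most 2 times the lowest for 66 lincRNAs and above 4 times for 59, and Gm26685 was the only gene at 0 in any library. Besides those described, Gm26899, Gm16295 and 1700037F24Rik stood among the 10 with the largest SD without passing between codes. Gm26899 had 24.5, 44.8 and 47.2 CPM in R62848, and 6.80, 4.15 and 8.93 CPM in R62850, but R63496 ranged from 5.72 to 33.7 CPM within the code (edgeR adjusted p = 0.0559; 0.00014 without R63496_1). 1700037F24Rik, from 0.915 to 7.61 CPM, had an adjusted p of 0.327, and 0.0093 without R63496_1.

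**Figure D4:**
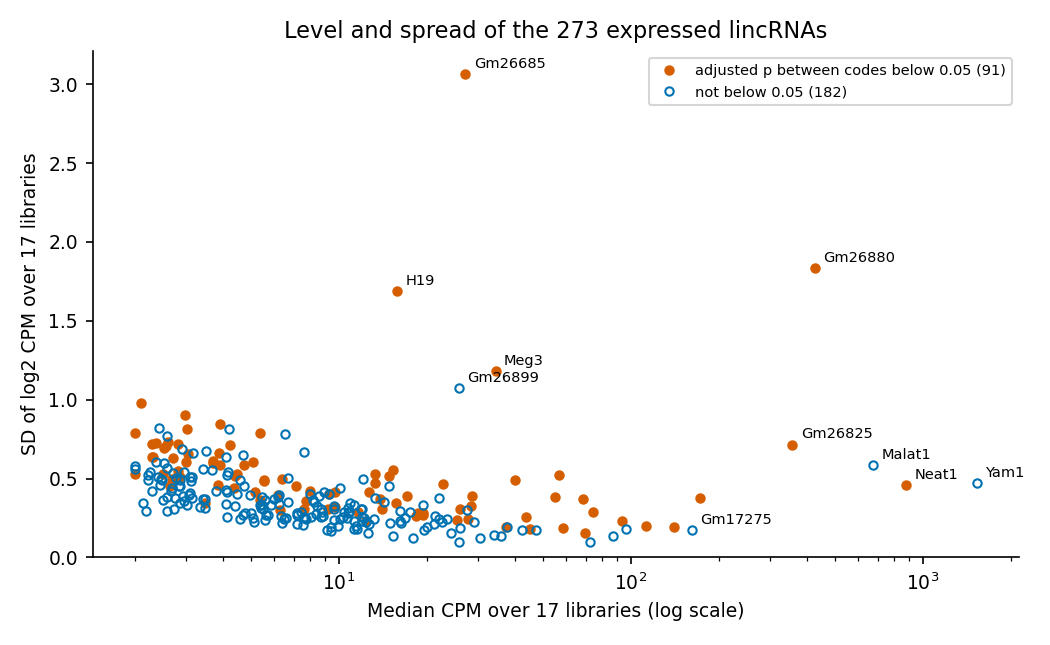
SD of log2 CPM (vertical axis) against median CPM (horizontal axis, log scale) of the 273 lincRNAs over 17 libraries. Filled points passed the test between codes. Gm26685, Gm26880, H19 and Meg3 stand above the rest, and Malat1, Neat1 and Yam1 are the most abundant.

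The steadiest lincRNAs were 5031425E22Rik and Gm26582, each with an SD of 0.10, followed by 1810012K08Rik with 0.12 and Gm26819 and B130046B21Rik with 0.13 and 0.14. 5031425E22Rik, whose start lies 172 bases from that of the histone methyltransferase gene Kmt2e, had 21.2 CPM at the lowest, 25.8 at the median and 29.7 at the highest. Gm26582 overlaps G3bp2, a stress-granule protein gene, and had 57.9, 72.7 and 84.7 CPM. Neither passed between codes (edgeR adjusted p = 0.916 and 0.347).

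Promoters were available from RefSeq (GRCm38.p6, 250 bases before to 50 after a gene's start) for 109 of the 273 genes. Shown are those of the most abundant, a highly variable and the steadiest gene with an entry that these results describe, Malat1, Meg3 and 5031425E22Rik. Capitals mark the motifs searched, on both strands: the TATA-box letters TATAAA, the CCAAT box, the GC-box letters GGGCGG, the E-box letters CACGTG, the CRE letters TGACGTCA, the AP-1 letters TGACTCA and the ETS letters CCGGAAG. The RefSeq start of 5031425E22Rik lies 933 bases from the gene start in the table.
Malat1 promoter, chr19:5802623-5802922, minus strand: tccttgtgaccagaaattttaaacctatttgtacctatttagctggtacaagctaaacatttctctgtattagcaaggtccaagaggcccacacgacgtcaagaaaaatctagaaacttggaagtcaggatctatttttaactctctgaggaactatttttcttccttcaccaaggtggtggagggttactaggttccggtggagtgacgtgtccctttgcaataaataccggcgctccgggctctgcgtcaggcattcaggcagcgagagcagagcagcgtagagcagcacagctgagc
Meg3 promoter, chr12:109540746-109541045, plus strand: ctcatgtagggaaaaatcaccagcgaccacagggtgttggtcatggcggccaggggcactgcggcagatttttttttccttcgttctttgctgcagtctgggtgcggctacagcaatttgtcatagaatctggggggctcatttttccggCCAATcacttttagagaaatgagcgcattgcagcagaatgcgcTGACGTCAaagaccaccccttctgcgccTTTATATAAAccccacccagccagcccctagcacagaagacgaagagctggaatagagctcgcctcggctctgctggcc
5031425E22Rik promoter, chr5:23433287-23433586, minus strand: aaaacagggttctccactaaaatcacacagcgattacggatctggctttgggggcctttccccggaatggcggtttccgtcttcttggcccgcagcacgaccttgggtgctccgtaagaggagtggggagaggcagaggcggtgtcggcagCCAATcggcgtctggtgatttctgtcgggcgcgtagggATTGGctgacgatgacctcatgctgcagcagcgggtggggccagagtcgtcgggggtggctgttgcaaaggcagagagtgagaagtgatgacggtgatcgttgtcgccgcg
The Meg3 window held CCAAT at -100, TGACGTCA at -57 and overlapping TATAAA matches at -29 and -25, counted from the RefSeq start. The 5031425E22Rik window held CCAAT at -99 and, on the other strand, at -61, and the Malat1 window held none of the 7. Over the 109 windows, the motif TGACGTCA occurred in 6.42%, against 1.88% of the windows of all 27025 genes. GGGCGG occurred in 53.2% against 35.9%, CCGGAAG in 15.6% against 9.12%, CACGTG in 10.1% against 7.24%, CCAAT in 34.9% against 37.9%, TATAAA in 8.26% against 14.2%, and TGACTCA in 1.83% against 5.17%. The windows of the lincRNAs had a median GC content of 57.3% and those of all genes 52.7%. A match is a description of letters, not of a bound site.

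Levels of a lincRNA and of its coding neighbour were compared within codes, after each code's mean was subtracted from the log2 CPM. Of 71 neighbour pairs within 10 kb without overlap in the table's coordinates, 0 passed (exact permutation within codes, 15552 orders, adjusted over the 71 pairs), with 6 at an unadjusted p below 0.05. The median Pearson r was 0.16, from -0.62 to 0.80, and r was positive in 53 pairs. The highest was Gpr137b-ps with Ero1lb, an endoplasmic reticulum oxidase gene, at r = 0.80 and rho = 0.62 (exact permutation adjusted p = 0.423 and 0.366), with r = 0.61 without the 2 libraries farthest from the Ero1lb median. The lowest was Gm28933 with Foxn3 at r = -0.62 and rho = -0.41 (exact permutation adjusted p = 0.510 and 0.698), with r = -0.56 without the 2 farthest. The pairs 2700033N17Rik with Meis2, Gm15675 with Cd55 and 2900076A07Rik with Fsd2 followed at r = 0.64, 0.64 and 0.63. Head-to-head pairs had a median r of 0.14. Some lincRNAs of the neighbour pairs do overlap a coding gene in M21. Among them, B230354K17Rik, A330023F24Rik and 1300002E11Rik have 17.8%, 11.5% and 5.39% of their exon bases in coding exons.

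Pairs that overlap gave other values. Of 153 overlapping pairs, examined after the data had been seen, 38 passed, all with positive r, and the median r was 0.50. Spearman's rho also passed in 30 of these. By the share of the lincRNA's exon bases that lies in coding exons, 19 of 43 pairs with at least 50% passed (median r 0.69), 19 of 95 with less than 50% (median r 0.45), and 0 of 9 with none (median r 0.26); the remaining 6 were not in M21. The highest was Gm26883 with Tshz2, a zinc finger factor gene, with 99.2% of the lincRNA's exon bases in coding exons: r = 0.97 and rho = 0.96, each with an exact permutation adjusted p of 0.0098, and r = 0.96 without the 2 libraries farthest from the Tshz2 median. Next came Gm28592 with Phlda1 (r = 0.97, rho = 0.79; 98.1% of exon bases shared), Gm26827 with Chsy1 (r = 0.95), Gm26541 with Mob3a (r = 0.95) and Gm26751 with Nynrin (r = 0.95). For Gm28592 the adjusted p was 0.0259 for r and 0.0772 for rho, and r without the 2 farthest libraries was 0.86. The pair of 1810014B01Rik and Hsp90b1 reached r = 0.95 and rho = 0.89 (exact permutation adjusted p = 0.0123 and 0.0204) with 15.7% of the exon bases shared. Hsp90b1 had 1132, 1362 and 1330 CPM in R62848, and 666, 726 and 781 CPM in R63496, and 1810014B01Rik had 177, 267 and 276 CPM in R62848, and 97.8, 128 and 155 CPM in R63496. Gm28592, which lies on Phlda1, had 52.5, 107 and 64.4 CPM in R63500 and 35.4, 37.4 and 29.0 CPM in R63496 (edgeR adjusted p = 9.5e-05). Phlda1, a gene that growth factors and stress induce, had 103, 199 and 125 CPM in R63500 and 73.6, 78.8 and 67.0 CPM in R63496. Both were highest in R63500_2, where the summed heat shock genes stood at 5054 CPM, against 2811 and 2841 CPM in the other R63500 libraries. The heat shock sums were higher still in R63494, at 6094 and 5558 CPM, where Phlda1 had 150 and 144 CPM. The part of tissue handling was not tested. Gm26762, on the glycolytic enzyme gene Gpi1, had 107, 94.7 and 101 CPM in R62848 and 61.0, 67.1 and 60.0 CPM in R63496 (edgeR adjusted p = 9.0e-05), and its pair with Gpi1 did not pass (r = 0.73, exact permutation adjusted p = 0.111). The difference between overlapping and neighbouring pairs was not tested, and whether shared reads or joint transcription lie behind the overlapping pairs cannot be told apart in these counts.

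**Figure D5:**
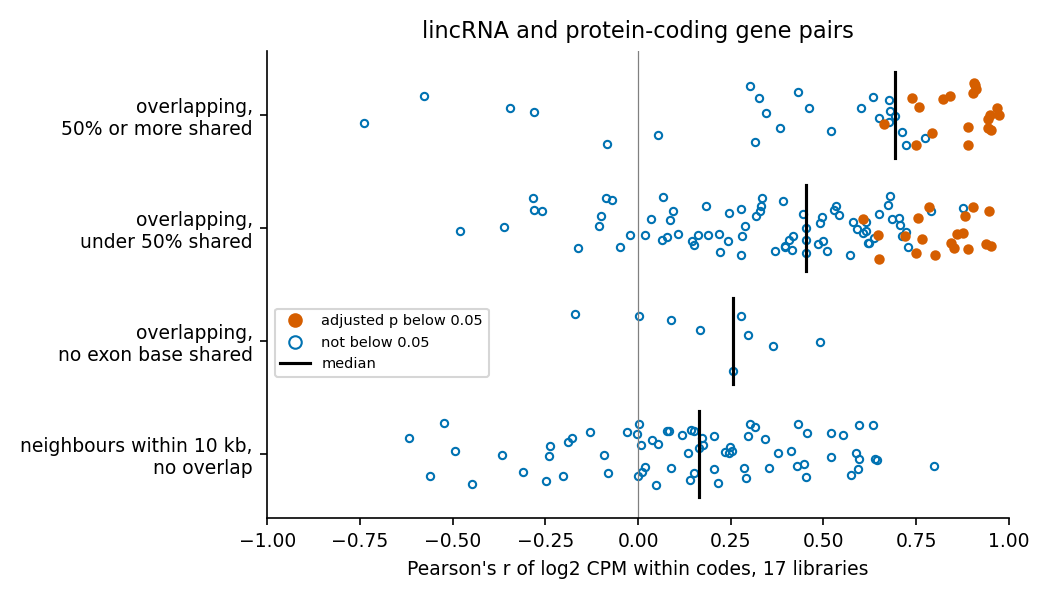
Pearson's r of log2 CPM within codes (horizontal axis) for pairs of a lincRNA and a coding gene. Rows are set by overlap in the table's coordinates and by exon bases shared in M21. Each point is a pair, filled where the adjusted p was below 0.05, and each black line a median: 0.69, 0.45 and 0.26 for the overlapping pairs and 0.16 for neighbours.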

How the data were processed

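RNA-seq libraries of mouse bile duct were analysed from the authors' table, which gives for each gene a deposited count (whole reads per gene, not normalized) in each of 17 libraries. Another 17 columns of per-sample values were not used. Per the submitters' processing notes, reads were handled on build mm10 by tools that include edgeR 3.40.2, STAR 2.6.1c and featureCounts, in roles that are not stated. The sources used here do not give the annotation release or strand setting. Printed CPM are counts over the column total, and RPKM, which stand in for the FPKM named when the rules were written, are CPM per kilobase of the table's gene length. Library totals were 16400556 to 24152314 counts. With no conditions in the labels, the 6 codes in the column names were compared.

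Counts were tested with edgeR 4.0.16 in R 4.3.3: filterByExpr by code (19412 genes kept, all 273 lincRNAs among them), TMM factors, and the robust quasi-likelihood F test over 6 codes, Benjamini-Hochberg adjusted over all tested genes, threshold 0.05. In simulated counts for this test (18856 genes) it recovered 64 of 100 genes changed 2-fold and 94 of 100 changed 4-fold, with 8 false calls. Pairs were tested by exact permutation within codes (Pearson and Spearman). RLE factors, DESeq2 1.42.0, no low-count filter, each library left out, and the R62850 libraries left out were alternatives. GENCODE M21, on the same build, gave strands, exons and current names. The genes and gene lists were chosen with earlier results of these data known. Named are the 12 lincRNAs highest by RPKM, the 10 most and 5 least variable, the 10 with the smallest adjusted p between codes, listed genes, those at the threshold and the leading pairs, with overlapping partners and neighbours named after their values were seen.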

Additional observations from a re-analysis of the deposited data

How the results depend on the processing

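The count of lincRNAs that differed between codes was 94 of 273 with RLE factors (34.4%, beside 42.3% of all tested genes), 110 with DESeq2's likelihood ratio test (40.3% beside 49.1%) and 76 without the 3 R62850 libraries (27.8% beside 36.2%), against 91 as reported (33.3% beside 42.2%). With no filter on low counts it was 104, and the order turned round (38.1% beside 29.1% of 29354 genes). Leaving out each library gave 77 to 99 lincRNAs and 7188 to 8531 genes in all. Restricting to genes without coding overlap left 44, and to genes sharing no exon base with coding exons 43, because fewer genes were counted; both restrictions were chosen after seeing the data. The test of the summed share gave p = 0.0401 without Malat1 and Neat1, 0.275 without Yam1 (chosen after seeing the data), and 0.0288 (without R63496_1) to 0.759 (without R62848_2) when 1 library was left out. The median SD stayed between 0.35 and 0.37 when each library was left out; with no filter it was 0.36 for lincRNAs and 0.40 for all genes, the reverse of the reported order. A threshold of 5 CPM in place of 2 left 173 lincRNAs, and 1 CPM gave 378. Neighbour pairs gave 0 calls within 5 kb or 50 kb, on log2 RPKM and in all fits without 1 library, and overlapping pairs, chosen after seeing the data, 38. Of the 48 named genes, 48 kept their side of the threshold with RLE factors, 45 with DESeq2, 42 with no filter and 46 without R62850; of 816 refits without 1 library 779 did. Genes near 2 CPM rest on few counts, and CPM differences at that level are limited by depth. No paired analysis was possible because the labels give 1 group and no replicate numbers.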

Other observations

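Several well-known noncoding genes stood outside the set because of their biotype in the table. Gas5, a snoRNA host of the growth-arrest response, had 136, 163 and 141 CPM in R63500, and 84.9 to 128 CPM elsewhere (edgeR adjusted p = 0.0013). Snhg11 had 61.2, 70.0 and 65.5 CPM in R62850, and 13.4, 19.2 and 20.7 CPM in R62848 (adjusted p = 9.2e-07). The R62850 libraries were thus the 3 highest for Snhg11. Mir22hg, host of miR-22, had 17.97 to 46.5 CPM over the libraries (adjusted p = 0.00010). Tug1, at 79.95 to 123 CPM, did not pass (adjusted p = 0.0811), and neither did Snhg5, at 17.8 to 27.2 CPM (adjusted p = 0.265).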
